A study of Mus musculus with 4 samples.

Results

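The cytochrome P450 genes measured in the colon of mice with and without intestinal Vhl are described here. They are the 70 genes with a standard P450 symbol (Cyp, a family number, a subfamily letter and a gene number), out of 18194 genes with a probe set of their own on the array. The 70 genes were covered by 93 probe sets, and where a gene had several, the one brightest on average was kept. Of the 70, 29 came to 6 or more on the log2 scale in 1 array or more, as did 11871 of all genes, while 41 stayed below 6 in every array.

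Cytochrome P450 enzymes are haem proteins that insert oxygen into small lipophilic molecules, with electrons from P450 reductase in the endoplasmic reticulum or from ferredoxin in mitochondria. Members of families 1 to 3 are best known for the oxidation of drugs and toxicants, and family 4 for fatty acids and eicosanoids. Other families make or break down sterols, bile acids, steroid hormones, vitamin D and retinoic acid. Most are richest in the liver, while the gut epithelium expresses a set of its own, several of them under nuclear receptors.

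Mucosa was scraped from the colon of 129S6/SvEv mice, 5 weeks old, on standard chow, and its RNA was hybridised to 1 Affymetrix array per genotype. The VhlF/F mice carried floxed Vhl, which encodes the protein that targets hypoxia-inducible factors for destruction, and served as the control. VhlΔIE mice were knocked out for Vhl in the intestine only. VhlF/F/Apcmin/+ and VhlΔIE/Apcmin/+ mice also carried the Min allele of Apc, which gives rise to intestinal tumours. The promoter driving the deletion is not given in the sources used here. The design text names 4, 3, 3 and 5 mice for VhlF/F, VhlΔIE, VhlF/F/Apcmin/+ and VhlΔIE/Apcmin/+, and does not say whether their RNA was pooled. With 1 array per genotype there are no replicates, so no difference below has a test or an error. The number of arrays limits the precision.

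Values are RMA log2 values as deposited, and a difference of 1 is 2-fold. Series of 4 values are given throughout in the order VhlF/F, VhlΔIE, VhlF/F/Apcmin/+ and VhlΔIE/Apcmin/+. Vhl read 8.40, 7.03, 8.17 and 6.56, lower in both arrays labelled as deleted. Of 12 colon epithelial markers 11 had a probe set, and these read between 9.82 and 14.19 over the arrays. Other transcripts moved with the arrays too. Xist, the RNA of the inactive X chromosome, read 11.37, 5.58, 11.83 and 6.25, while Eif2s3y and Kdm5d of the Y chromosome were read in all 4 arrays, at 8.58, 8.78, 7.27 and 8.80 and 8.09, 8.03, 6.61 and 7.85. The sex makeup of the arrays and Vhl deletion therefore cannot be told apart. Both Y chromosome genes read lowest in VhlF/F/Apcmin/+ and Xist highest, so sex makeup and Apcmin/+ on floxed Vhl cannot be told apart either. All 8 endothelial markers read higher with Vhl deletion in both backgrounds and all 8 smooth muscle markers lower, with medians of 1.31 and -0.62 without Apcmin/+. In bulk tissue, fewer cells of a type and less RNA per cell cannot be told apart.

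Promoter windows are shown for 7 genes on which the results turn: Cyp2s1 and Cyp2d26, high with Vhl deletion, Cyp2f2 and Cyp4v3, low with it, the neighbours Cyp2c55 and Cyp2c65, whose Vhl differences had the same sign in 1 background alone, and Cyp3a11, high in VhlF/F. Each is the 250 bases before the RefSeq start of GRCm38.p6, read 5′ to 3′ on the gene's strand. Capitals mark matches, on either strand, to ACGTG or GCGTG, cores of hypoxia and aryl hydrocarbon response elements, to AGGTCA, the core hexamer of nuclear receptor sites, or to TTATGNAA, the D-box of the clock output factors. The windows lie at chr7:25816526-25816775 (minus strand), chr15:82794246-82794495 (minus strand), chr7:27119705-27119954 (plus strand), chr8:45333164-45333413 (minus strand), chr19:39006769-39007018 (plus strand), chr19:39060756-39061005 (plus strand) and chr5:145879855-145880104 (minus strand), in the order printed.
Cyp2s1: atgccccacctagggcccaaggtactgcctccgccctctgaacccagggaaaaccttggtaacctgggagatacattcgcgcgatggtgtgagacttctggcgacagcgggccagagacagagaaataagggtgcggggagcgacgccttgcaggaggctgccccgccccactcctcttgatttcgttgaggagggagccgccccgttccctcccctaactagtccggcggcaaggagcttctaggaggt
Cyp2d26: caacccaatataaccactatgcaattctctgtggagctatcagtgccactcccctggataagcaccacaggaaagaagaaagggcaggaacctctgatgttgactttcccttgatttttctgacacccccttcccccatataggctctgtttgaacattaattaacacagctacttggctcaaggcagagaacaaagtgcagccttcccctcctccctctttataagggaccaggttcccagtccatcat
Cyp2f2: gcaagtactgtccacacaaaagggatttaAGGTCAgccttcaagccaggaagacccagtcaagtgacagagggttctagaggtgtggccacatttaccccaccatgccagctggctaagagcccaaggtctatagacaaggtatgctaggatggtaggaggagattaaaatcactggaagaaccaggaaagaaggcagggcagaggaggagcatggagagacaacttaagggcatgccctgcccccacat
Cyp4v3: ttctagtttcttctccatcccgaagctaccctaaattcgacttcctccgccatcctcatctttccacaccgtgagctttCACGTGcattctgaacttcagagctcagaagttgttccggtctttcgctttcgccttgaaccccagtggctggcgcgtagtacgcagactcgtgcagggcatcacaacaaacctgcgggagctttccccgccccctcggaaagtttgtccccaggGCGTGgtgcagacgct
Cyp2c55: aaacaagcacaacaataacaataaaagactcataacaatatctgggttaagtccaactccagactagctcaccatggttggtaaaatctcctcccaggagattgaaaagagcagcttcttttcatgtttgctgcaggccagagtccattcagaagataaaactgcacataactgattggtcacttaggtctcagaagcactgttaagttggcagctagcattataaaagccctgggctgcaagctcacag
Cyp2c65: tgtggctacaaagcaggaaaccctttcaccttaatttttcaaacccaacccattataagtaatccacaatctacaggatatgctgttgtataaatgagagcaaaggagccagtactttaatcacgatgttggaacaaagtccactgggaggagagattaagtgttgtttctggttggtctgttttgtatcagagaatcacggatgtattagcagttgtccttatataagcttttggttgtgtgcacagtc
Cyp3a11: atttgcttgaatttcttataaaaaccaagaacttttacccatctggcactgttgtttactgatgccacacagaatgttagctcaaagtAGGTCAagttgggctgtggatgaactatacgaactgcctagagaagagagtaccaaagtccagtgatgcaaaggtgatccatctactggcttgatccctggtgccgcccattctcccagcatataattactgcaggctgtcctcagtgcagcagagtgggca

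None of the 4 motifs was found in the windows of Cyp2s1, Cyp2d26, Cyp2c55 and Cyp2c65. Cyp4v3 held overlapping matches to ACGTG on both strands, 171 to 166 bases before the start, and GCGTG 16 to 12 bases before it. Cyp2f2 held AGGTCA at 221 to 216 and Cyp3a11 at 162 to 157 bases before the start. RefSeq windows were at hand for 23 of the 29 P450 genes that reached 6, in 27 windows. ACGTG stood in 3 of these 27 (11.1%) against 16.6% of all 32851 windows, GCGTG in 5 (18.5%) against 28.2%, AGGTCA in 5 (18.5%) against 14.0%, and TTATGNAA in 2 (7.41%) against 3.07%. Cyp2c55 and Cyp2c65 shared 54.9% of their aligned window letters, and the other pairs of printed windows 46.1% to 52.6%. A match is a description of the letters, and binding was not measured.

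P450 genes mostly read lower in the Vhl deleted colon, and 2 of the 29 were 2-fold higher in both Apc backgrounds. Without Apcmin/+, 10 of the 29 were at least 2-fold lower (1.60% of all genes) and 2 at least 2-fold higher (2.27%). With Apcmin/+, 6 were at least 2-fold lower (1.52% of all genes) and 4 higher (2.82%). Median differences were -0.48 and -0.51, against -0.02 and -0.02 over all genes. The 2 comparisons share no array. Over both, 5 genes were at least 2-fold lower (0.733% of all genes) and 2 higher (1.58%), and 25 of 29 kept their sign (75.9%). A gene that reached 6 through VhlF/F alone had to read lower in VhlΔIE, and 4 of the 29 did so. When these 4 and Cyp2e1 and Cyp3a11, high in VhlF/F, were set aside, the medians of the other 23 were -0.37 and -0.56. Among these 23, 6 were at least 2-fold lower and 2 higher without Apcmin/+, and 6 lower and 3 higher with it. Shares of all genes were not counted after the same step.

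**Figure D1:**
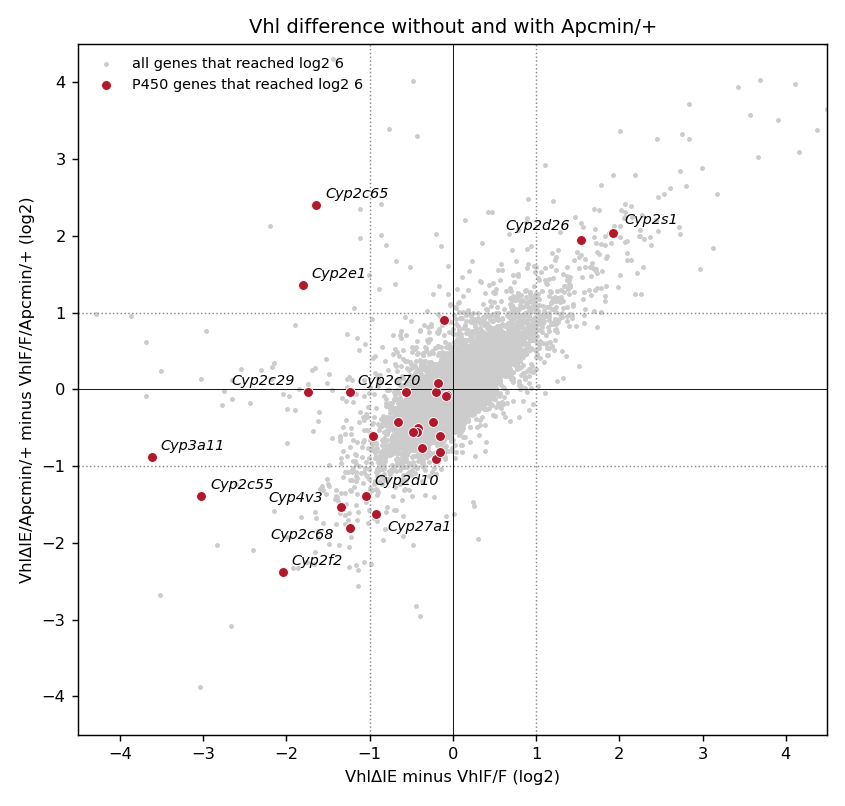
Vhl difference without Apcmin/+ (x axis, log2) against that with Apcmin/+ (y axis, log2) for P450 genes (red, named when 2-fold apart in either) and all genes that reached log2 6 (grey, with 13 genes beyond the axes), and dotted lines at 2-fold. Cyp2s1 and Cyp2d26 lie at the upper right, Cyp2f2, Cyp2c55, Cyp2c68, Cyp4v3 and Cyp2d10 at the lower left, and Cyp2c65 and Cyp2e1 at the upper left.

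Both Vhl deleted arrays read below both floxed arrays for 20 of the 29 genes (33.4% of all genes), and above both for 2 (27.7%). Of the 20, Cyp11a1, Cyp2a12 and Cyp2c70 reached 6 in VhlF/F alone, so the floor fixed part of their order. The count was 17 with values under 6 raised to 6, and 16 at a floor of 7. Under cyclic loess the count was 17, without Cyp21a1, Cyp2a12 and Cyp2j6. In the deposited values, their deleted arrays lay below the floxed ones by only 0.03, 0.04 and 0.02. With the mean over probe sets the count was 18. The gap between the groups was at least 2-fold for 5 genes on the lower side (0.564%) and for the same 2 on the higher side (1.36%). Those on the higher side were Cyp2s1 and Cyp2d26. Those on the lower side were Cyp2c55, Cyp2c68, Cyp2d10, Cyp2f2 and Cyp4v3. Xist and the endothelial and smooth muscle markers followed the same split, and the part of sex or tissue makeup in these differences was not tested.

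Cyp2s1, a P450 found mainly in epithelia outside the liver, read 10.13, 12.05, 10.03 and 12.07. The deleted arrays sat above both floxed arrays by nearly the same step in each background, 1.93 without and 2.04 with Apcmin/+. Cyp2d26, of the subfamily that in humans oxidises many basic drugs, read 8.31, 9.86, 8.19 and 10.13. It was higher by 1.54 and 1.94, while its Apcmin/+ differences were -0.12 with floxed and 0.27 with deleted Vhl.

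Cyp2f2, best known from club cells of the lung, where it activates naphthalene, read 9.77, 7.73, 9.99 and 7.61. It differed by -2.04 and -2.38, the widest gap on the lower side, with no overlap between groups. Its probe set and that of Cyp4v3 carry suffixes for probes shared between transcripts. Cyp4v3, a fatty acid hydroxylase whose human counterpart is mutated in Bietti crystalline dystrophy, read 7.82, 6.47, 7.99 and 6.46, differences of -1.34 and -1.53. A second Cyp4v3 probe set, dimmer, read 5.39, 4.71, 6.22 and 4.16 and differed by -0.67 and -2.06.

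Cyp2c55, an intestinal enzyme that oxidises arachidonic acid, read 13.27, 10.25, 12.90 and 11.51. Both floxed arrays were the highest, VhlΔIE was the lowest, and VhlΔIE/Apcmin/+ lay between. The Vhl difference was -3.02 without and -1.39 with Apcmin/+. Cyp2c68, of the same subfamily, read 11.73, 10.49, 12.16 and 10.35, and differed by -1.24 and -1.81. Cyp2d10 read 9.83, 8.78, 9.99 and 8.60, and differed by -1.05 and -1.38, just past 2-fold in the first. Cyp2c and Cyp2d genes have close copies in the mouse, so values of Cyp2c68 and of Cyp2d9, Cyp2d10, Cyp2d12, Cyp2d13 and Cyp2d34 may include their neighbours.

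**Figure D2:**
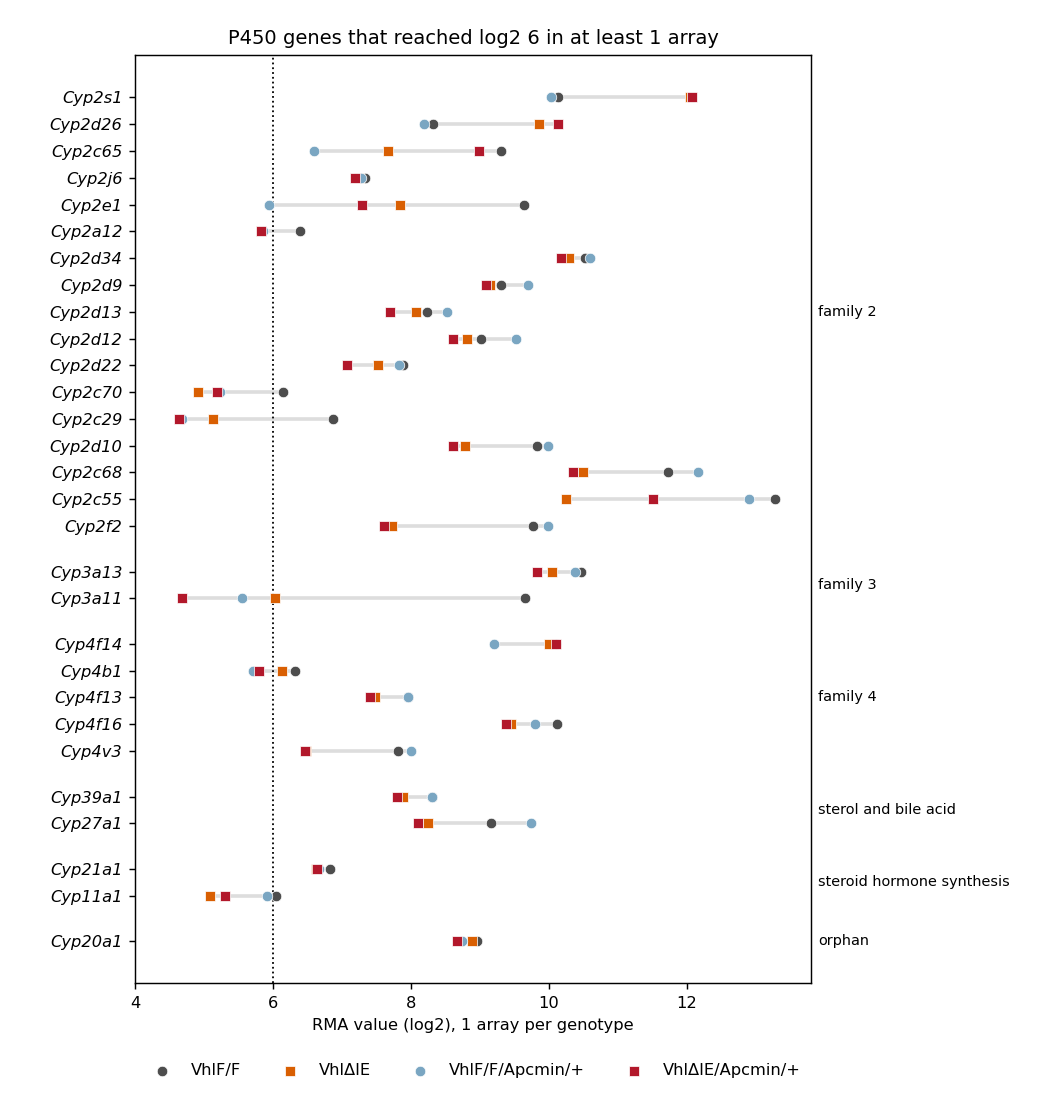
RMA values (x axis, log2) of the 29 P450 genes that reached log2 6 (dotted line), 1 point per array, circles for floxed and squares for deleted Vhl, grouped by family or role. Squares lie left of both circles for 20 genes and right of both for Cyp2s1 and Cyp2d26; levels of different genes are not comparable.

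Among genes of sterol and bile acid metabolism, 2 of 6 reached 6. Cyp27a1, the mitochondrial sterol hydroxylase of bile acid synthesis, read 9.16, 8.24, 9.74 and 8.11. Its Vhl difference was -0.92 without Apcmin/+, short of 2-fold, and -1.63 with it, and the groups did not overlap. With the mean over its 2 probe sets, of which the second stayed below 6, the latter was -0.98. Cyp39a1, an oxysterol hydroxylase, read 8.30, 7.88, 8.31 and 7.80, and was lower by less than 2-fold in both backgrounds. Of the 6 genes of this role, the other 4, with Cyp7a1, the first enzyme of the classic bile acid route, among them, peaked at 3.73 to 5.76.

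The Cyp2d subfamily divided within 1 stretch of the genome. Of 8 measured genes in their order along the chromosome, Cyp2d22, Cyp2d10, Cyp2d9, Cyp2d12, Cyp2d34 and Cyp2d13 were lower in both deleted arrays than in both floxed ones (33.4% of all genes). Apart from Cyp2d22, the values of these genes may include their neighbours, so they are not separate readings. The differences of the genes from Cyp2d22 to Cyp2d13 ran from -1.05 to -0.16 without and from -1.38 to -0.42 with Apcmin/+. Cyp2d40 stayed below 6, and Cyp2d26, last in the order, was the gene that read higher.

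**Figure D3:**
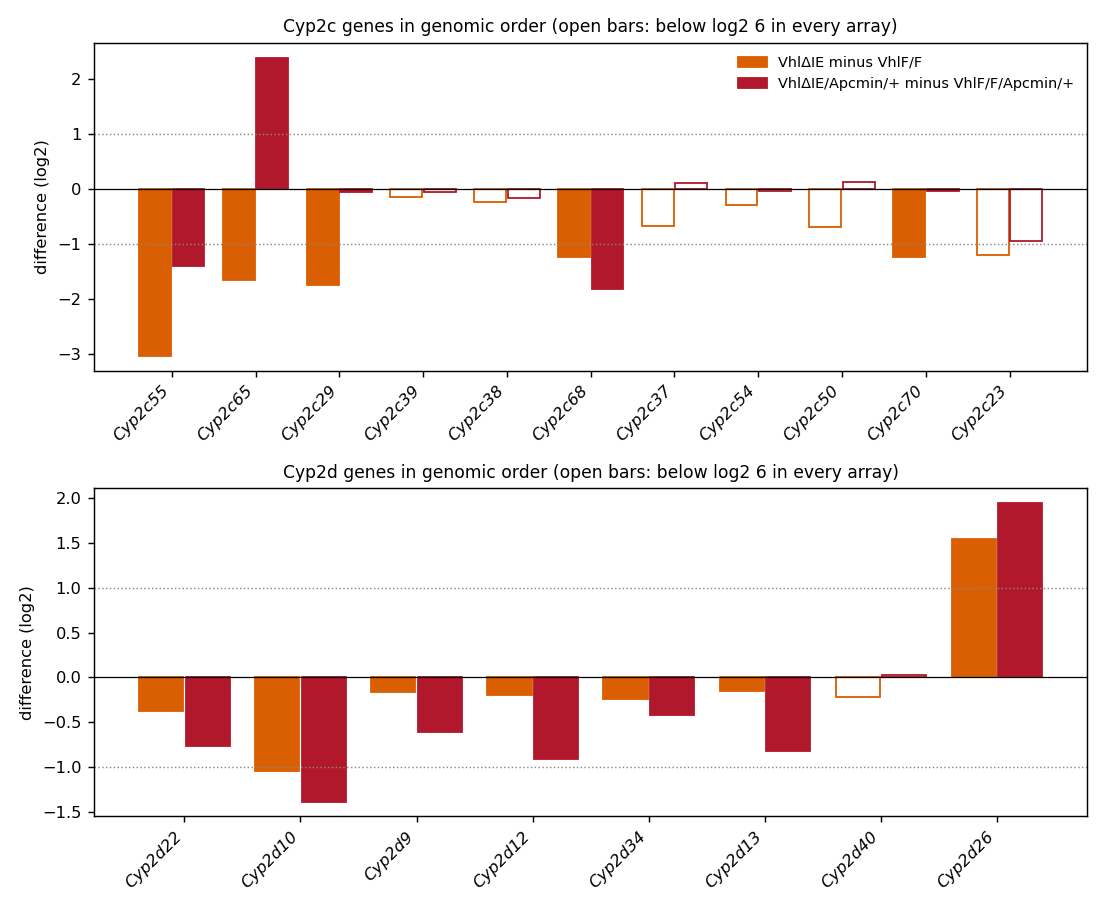
Vhl differences (y axis, log2) without Apcmin/+ (orange) and with it (red) for Cyp2c genes (top) and Cyp2d genes (bottom) in RefSeq gene order, spaced evenly, with dotted lines at 2-fold. Bars of Cyp2c65 point opposite ways, bars of Cyp2c55 and Cyp2c68 both point down, and Cyp2d26 alone among the Cyp2d genes shown has both bars past 2-fold upward.

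The Cyp2c genes read lower in VhlΔIE than in VhlF/F, but formed no common pattern in the Vhl difference with Apcmin/+. Of 11 measured, 5 reached 6: Cyp2c55, Cyp2c65, Cyp2c29, Cyp2c68 and Cyp2c70. All 5 were at least 2-fold lower without Apcmin/+ (1.60% of all genes), though Cyp2c29 and Cyp2c70 reached 6 through VhlF/F alone. With Apcmin/+, the differences of the 5 ran from -1.81 for Cyp2c68 to 2.40 for Cyp2c65. Cyp2c55 and Cyp2c65 are neighbours. Cyp2c65, another intestinal member, read 9.31, 7.66, 6.59 and 8.99. Both floxed arrays were thus the highest and the lowest of the 4, and the Vhl difference was -1.64 without Apcmin/+ and 2.40 with it. Its probe set carries the suffix for probes shared between genes, so close copies such as Cyp2c66 may add to it.

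Cyp2e1, the ethanol-oxidising P450 of liver and fat, was the other gene with 2-fold differences of opposite sign. It read 9.64, 7.84, 5.94 and 7.29, which gave -1.80 and 1.35. Such a reversal was found for 2 of the 29 P450 genes and for 0.0758% of all genes. Both genes were at least 2-fold lower in VhlF/F/Apcmin/+ than in each other array (0.295% of all genes). With the other floxed array as control, the Vhl differences of Cyp2c65 were 1.07 and -0.32, and those of Cyp2e1 were 1.90 and -2.35, so each sign turned. Cyp2e1 stood 1.80 higher in VhlF/F than in the next array. In VhlF/F, 19 of 21 hepatocyte markers read highest as well, and the part of liver RNA was not tested.

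Some other transcripts were low in VhlF/F/Apcmin/+ too. Of the Y chromosome genes, Eif2s3y, Kdm5d and Uty read lowest there, with Uty at 7.54, 7.87, 6.35 and 7.74, while Xist read highest there. Sex makeup therefore cannot be told apart from Apcmin/+ on floxed Vhl. Of 6 adipocyte markers with a probe set 5 read lowest in VhlF/F/Apcmin/+. Adipoq, the fat cell hormone adiponectin, read 7.64, 7.55, 6.28 and 7.17. Over the 6 markers the summed values were 40.9, 42.0, 36.7 and 39.9, and Lep stayed at 4.19 or less. Of 12 small intestinal markers 3 read lowest there, with Fabp2, a fatty acid carrier of enterocytes, at 12.17, 11.31, 9.73 and 11.74, while 2 read highest there and 5 were lowest in VhlΔIE/Apcmin/+. Means over the 12 were 8.20, 7.80, 7.25 and 7.34. The part of sex makeup, fat or small intestinal cells in the Cyp2c65 and Cyp2e1 values was not tested.

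Over the whole set, the Vhl difference with and without Apcmin/+ lay at least 2-fold apart for 7 of the 29 genes (1.57% of all genes). Beside Cyp2c65 and Cyp2e1 these were Cyp3a11, Cyp2c29, Cyp2c55, Cyp2c70 and Cyp4f14. Cyp2c29 and Cyp2c70 reached 6 in VhlF/F alone. With values under 6 raised to 6 their differences without Apcmin/+ were -0.87 and -0.15, and the count was 5. Cyp4f14, which inactivates leukotrienes, read 10.11, 9.99, 9.21 and 10.10, with VhlF/F/Apcmin/+ the lowest and its Vhl differences at -0.11 and 0.90.

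Apcmin/+ went with fewer 2-fold differences in P450 genes than Vhl deletion. With floxed Vhl, 0 of the 29 were at least 2-fold higher (0.118% of all genes) and 4 were at least 2-fold lower (0.901%), namely Cyp3a11 at -4.10, Cyp2e1 at -3.71, Cyp2c65 at -2.72 and Cyp2c29 at -2.19. With deleted Vhl, 2 were at least 2-fold higher (0.202%), Cyp2c65 at 1.32 and Cyp2c55 at 1.27, and Cyp3a11 at -1.36 was lower (0.118%). That Cyp3a11 difference lay mostly below 6, and was -0.03 once values under 6 were raised to 6. The Cyp2c29 difference with floxed Vhl became -0.87 in the same way, which left 3 genes. Cyp3a11, Cyp2e1 and Cyp2c29 were also at least 2-fold higher in VhlF/F than in each other array (0.329% of all genes). In VhlF/F, 19 of 21 hepatocyte markers read highest too, and their part was not tested. Of the 23 genes left without those high in VhlF/F, 1 was at least 2-fold lower with Apcmin/+ on floxed Vhl. Genes high in VhlF/F were the ones set aside, so the choice itself lowered this count. The share of all genes was not counted after the same step. The median differences over the 29 were -0.09 with floxed and -0.09 with deleted Vhl, against 0.00 and 0.00 over all genes. Both Apcmin/+ arrays read below both others for 5 genes, Cyp20a1, Cyp2c29, Cyp2e1, Cyp3a11 and Cyp4b1 (12.2% of all genes), and above them for 0 (12.5%). Counting any of the 4 comparisons, 13 of the 29 were at least 2-fold apart (6.06% of all genes). Among the 13 were Cyp2c29 and Cyp2c70, which reached 6 through VhlF/F alone. With values under 6 raised to 6, their Vhl differences without Apcmin/+ were -0.87 and -0.15, short of 2-fold.

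A group of P450 genes read high in the VhlF/F array. At or above 6 there and nowhere else were 4 of the 29 genes, Cyp2a12, Cyp2c29, Cyp2c70 and Cyp11a1 (0.767% of all genes). For VhlΔIE, VhlF/F/Apcmin/+ and VhlΔIE/Apcmin/+ alone the count was 0, against 0.438%, 0.632% and 0.615% of all genes. At least 2-fold higher in VhlF/F than in each other array were 3, Cyp3a11, Cyp2e1 and Cyp2c29 (0.329%). The first 4 are marked here as possible liver RNA, solely because they reached 6 in VhlF/F alone. Cyp3a11 and Cyp2e1 reached 6 in another array too and so fall outside the mark. They stood 3.62 and 1.80 above the next array, and are not thereby free of liver RNA.

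Cyp3a11, the main Cyp3a enzyme of mouse liver and a target of the pregnane X receptor, read 9.65, 6.03, 5.55 and 4.67. VhlF/F stood 3.62 above the next array. Cyp2c29, abundant in liver, read 6.87, 5.12, 4.68 and 4.64, and the other 3 arrays lay together below 6. Cyp2c70, which makes the muricholic acids of mouse bile, read 6.15, 4.91, 5.22 and 5.19, just inside the floor. Cyp2a12, a hydroxylase of bile acids in mouse liver, read 6.39, 5.82, 5.86 and 5.82.

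Cyp11a1, which starts steroid hormone synthesis from cholesterol and is not known for high levels in liver, read 6.05, 5.08, 5.91 and 5.30. It passed 6 in VhlF/F by the narrowest margin, and VhlF/F/Apcmin/+ lay only 0.13 lower, so the floor rather than a step between arrays put it in this group. The other 2 of its 3 probe sets stayed below 6 in every array. Nearest outside the floor were Cyp2c38 and Cyp7b1, with peaks of 5.90 and 5.76.

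**Figure D4:**
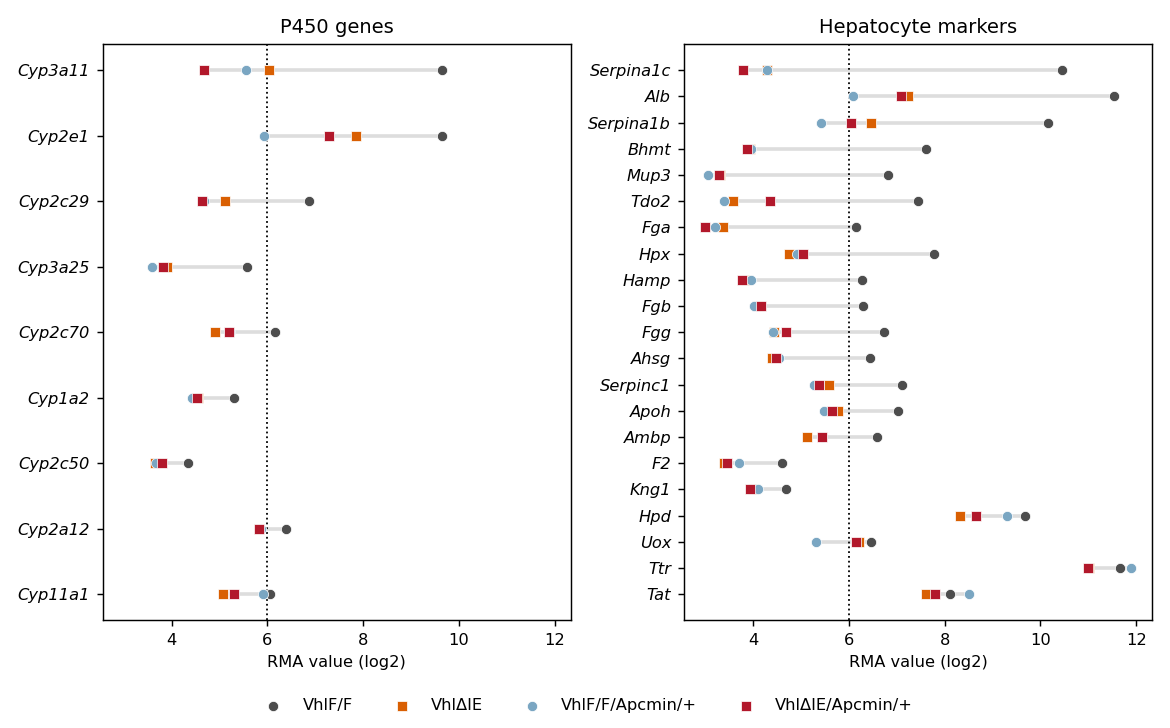
RMA values (x axis, log2) by array of the 9 P450 genes that read at least 0.5 higher in VhlF/F than in each other array or reached log2 6 (dotted line) in VhlF/F alone (left), and of 21 hepatocyte markers (right). The P450 genes were chosen for their VhlF/F value; among the markers, VhlF/F is the highest array for 19, and Ttr and Tat are the exceptions.

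Hepatocyte markers, chosen without P450 genes, mostly read highest in VhlF/F. The P450 group was picked for its VhlF/F value, so its likeness to them was fixed by that choice. Of 22 listed, 21 had a probe set, 19 read highest in VhlF/F and 15 at least 2-fold above each other array. The mean over the 21 was 7.60 in VhlF/F and 5.28, 5.26 and 5.29 in the others. Alb, plasma albumin, read 11.53, 7.24, 6.10 and 7.08, and Bhmt, a liver methyltransferase, read 7.61, 3.93, 3.96 and 3.87. Ttr and Tat, high in every array, followed no such pattern. No array lists a value at 0. Fga, the fibrinogen alpha chain, read 3.38 or less outside VhlF/F. Of 12 small intestinal markers, 6 read highest in VhlF/F, 4 in VhlΔIE and 2 in VhlF/F/Apcmin/+. In VhlF/F, 2 stood at least 2-fold above each other array. These were Fabp1, at 7.80, 5.14, 4.44 and 4.32, and Apoc3, at 7.86, 6.17, 5.19 and 4.65. The part of liver or small intestinal RNA in the P450 values was not tested.

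Below the floor, the VhlF/F array was the highest for some genes and not for others. It was the highest for Cyp3a25, at 5.58, 3.91, 3.58 and 3.82, and for Cyp1a2, a liver enzyme, at 5.29, 4.54, 4.42 and 4.52. Cyp2c50, Cyp2c37, Cyp2c54, Cyp2c23 and Cyp2j5 also read highest there, while Cyp2b10 and Cyp2j9, for example, did not. Other genes typical of liver were dim everywhere. Cyp7a1 read 3.69, 3.61, 3.73 and 3.50 and Cyp8b1, which sets the cholic acid share of bile, 4.14, 3.80, 3.81 and 3.53. Cyp8b1 thus read highest in VhlF/F too, and Cyp7a1 in VhlF/F/Apcmin/+.

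The other P450 genes that reached 6 differed by less than 2-fold in each of the 4 comparisons. Cyp3a13, a Cyp3a enzyme of the intestine, read 10.47, 10.04, 10.38 and 9.82. The fatty acid hydroxylases Cyp4f13 and Cyp4f16 read 7.96, 7.48, 7.96 and 7.40 and 10.11, 9.44, 9.80 and 9.37, both lower in the deleted arrays. A second Cyp4f16 probe set, dimmer, read 7.39, 7.13, 7.45 and 7.42, and there the floxed and deleted arrays overlapped. Cyp4b1, of the same family, read 6.31, 6.13, 5.71 and 5.79, and its floxed and deleted arrays overlapped.

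Cyp2d22, Cyp2d9, Cyp2d12, Cyp2d13 and Cyp2d34 read 7.89, 7.51, 7.83 and 7.07; 9.30, 9.14, 9.70 and 9.09; 9.01, 8.81, 9.53 and 8.61; 8.23, 8.07, 8.51 and 7.69; and 10.52, 10.29, 10.60 and 10.17. In each, the deleted arrays were the lowest, as for 33.4% of all genes. Cyp2j6, which makes epoxides of arachidonic acid, was nearly level at 7.33, 7.25, 7.27 and 7.18. Cyp21a1, of adrenal steroid synthesis, read 6.82, 6.62, 6.67 and 6.64, and the orphan enzyme Cyp20a1 8.96, 8.89, 8.74 and 8.67.

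The 41 genes below 6 in every array ranged from 2.92 to 5.90, and 39 of them stayed within 2-fold in all 4 comparisons. The exceptions were Cyp3a25 and Cyp2c23. Cyp2c23, an arachidonic acid epoxygenase, read 5.59, 4.41, 5.39 and 4.45. Among the 41 were all 3 family 1 genes, with peaks of 4.46 to 5.29, all 3 vitamin D genes, peaking at 3.76 to 5.54, and both Cyp26 genes of retinoic acid breakdown, peaking at 4.52 and 5.70. Cyp1a1, the classic target of the aryl hydrocarbon receptor, read 3.84, 4.69, 3.75 and 3.75, and Cyp24a1, which inactivates vitamin D, 5.41, 5.54, 5.16 and 5.54.

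Partners of the P450 enzymes differed by group, beside 6.06% of all genes 2-fold apart in any of the 4 comparisons. Among the electron donors, 4 of 6 had a probe set and 0 were 2-fold apart in any of the 4 comparisons. Cyb5a, cytochrome b5, read 11.67, 11.69, 11.80 and 11.71, and Fdx1, mitochondrial ferredoxin, 11.04, 11.03, 11.09 and 11.03. Of 13 genes of haem synthesis and breakdown 11 reached 6, and 1 was 2-fold apart. This was Hmox1, haem oxygenase, at 5.53, 6.60, 5.71 and 6.52, 2-fold higher with Vhl deletion in the comparison without Apcmin/+. Alas1, the first enzyme of haem synthesis, read 10.47, 10.39, 10.22 and 10.60.

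Of 22 regulators 19 reached 6, and 3 of these were 2-fold apart in any comparison. With Vhl deletion 0 were 2-fold higher and 2 lower without Apcmin/+ (2.27% and 1.60% of all genes), and 1 higher and 1 lower with it (2.82% and 1.52%). Dbp, a clock output factor that binds D-boxes, was lower in both, at 9.37, 5.86, 10.74 and 8.05. Tef, its relative, read 10.17, 8.99, 10.78 and 9.94 and was 2-fold lower in the comparison without Apcmin/+. Nfil3, the repressor at the same boxes, read 5.53, 6.15, 4.66 and 5.72. It was the higher gene with Apcmin/+, but both values of that comparison lay below 6. Dbp was also 2-fold higher with Apcmin/+ for both states of Vhl.

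The receptors on the list differed by less than 2-fold in each comparison. Nr1i2, the pregnane X receptor, read 8.73, 8.48, 9.04 and 8.63, Ahr 9.72, 9.71, 9.68 and 9.58, and Hnf4a, a master factor of liver and gut epithelium, 12.82, 12.80, 12.84 and 12.91. Vdr, the vitamin D receptor, read 12.06, 11.48, 12.36 and 11.51, lower in the deleted arrays. Nr1i3, the constitutive androstane receptor, read 6.17, 6.15, 6.85 and 6.17, highest in VhlF/F/Apcmin/+, and Ppara, the fatty acid receptor, 8.43, 7.80, 8.01 and 8.15. The part of these factors in the P450 differences was not tested.

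Among enzymes and pumps that act after P450 oxidation, 10 of 12 reached 6, and 5 of these were 2-fold apart in any comparison. With Vhl deletion 0 were 2-fold higher and 4 lower without Apcmin/+ (2.27% and 1.60% of all genes), and 1 higher and 3 lower with it (2.82% and 1.52%). The higher one was the glutathione transferase Gsta4, at 10.71, 10.76, 9.82 and 11.12, lowest in VhlF/F/Apcmin/+. Abcb1a, the efflux pump P-glycoprotein, read 12.22, 10.23, 12.43 and 10.51, the sulfotransferase Sult1a1 11.34, 9.95, 11.11 and 9.66, and the carboxylesterase Ces2a 11.42, 10.12, 11.39 and 10.32. These 3 were 2-fold lower in both backgrounds (0.733% of all genes) with no overlap between groups (33.4%), as Cyp2f2 was. Ugt2b5, a glucuronosyltransferase of liver, read 6.13, 3.16, 3.55 and 4.32, high in VhlF/F as the hepatocyte markers were.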

How the data were processed

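The authors deposited log2 values for 45101 probe sets on 4 arrays, which the submitters' processing notes credit to affy and RMA, with versions not given in the sources used here. RMA subtracts background, equalises the distributions of the arrays and summarises probes by median polish, so a shift of all transcripts would be hidden and differences near background are compressed. Array medians were 6.05 to 6.07, and 0 values were missing.

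Names came from GEO's platform annotation, with 34958 probe sets of a single symbol, 932 of several and 9211 not listed. All 70 P450 symbols matched the RefSeq table of GRCm38.p6 by Entrez ID, which served for names and gene order. Probe sets with several symbols were left out, 4 of them for P450 genes.

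Differences are 1 array minus another. Those of 2-fold or more were counted among genes that reached log2 6 in at least 1 array, beside the share of all genes. Every P450 gene that reached 6 is named, with all 4 values when 2-fold apart, and other genes are named from fixed lists of markers and pathway partners. The members, lists and motifs were chosen with earlier results of these data known. Counting was tested on simulated data. Alternatives were no floor, a floor of 7, values under 6 raised to 6, the mean over probe sets, no _x_at, _s_at or _a_at probe sets, cyclic loess, a 1.5-fold threshold and the other floxed control. Python 3.11.15, pandas 2.3.3, R 4.3.3 and limma 3.58.1 were used.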

Additional observations from a re-analysis of the deposited data

Results flagged for a closer look

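The Vhl difference of Cyp2c65 was -1.64 without Apcmin/+ and 2.4 with it, and that of Cyp2e1 was -1.8 and 1.35. Both are listed because the arrays moved at least 2-fold in opposite directions in the 2 Apc backgrounds. The difference between the backgrounds was not tested, since each genotype has 1 array.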

How the results depend on the processing

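With 1 array per genotype no replicate could be left out, and no paired analysis was possible because no replicate numbers exist. Under cyclic loess and the mean over probe sets, each count of P450 genes stayed within 1.5 times its value in the report. With the other floxed array as control, the counts without Apcmin/+ were 4 higher and 6 lower, and with it 2 higher and 9 lower. The genes added to the latter were Cyp2c29, Cyp2e1 and Cyp3a11, all high in VhlF/F. The differences without Apcmin/+ then turned to 0.44 for Cyp2c29, 0.48 for Cyp3a11, 1.07 for Cyp2c65 and 1.90 for Cyp2e1, and with it to -0.32 for Cyp2c65 and -2.35 for Cyp2e1. At 1.5-fold, 12 genes were lower with Vhl deletion on Apcmin/+, 8 in both backgrounds, and 7 with Apcmin/+ on floxed Vhl. Without probe sets of shared probes, 3 genes were lower in both backgrounds, as Cyp2f2 has no other probe set and Cyp4v3 passed into its dimmer one, and 1 was higher with Apcmin/+ on deleted Vhl. With values under 6 raised to 6, 0 genes were lower in that comparison. At a floor of 7, the gene in VhlF/F alone was Cyp3a11, a count of 1. With no floor, the groups by Vhl did not overlap for 32 lower and 9 higher genes; the counts of non-overlap, and that of differences between Apc backgrounds with values raised to 6, were chosen after seeing the data. Shares of all genes were not counted at any of these other settings, so these counts cannot be set against a general rate. Dim values limit what can be read for the 41 genes below 6.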

Other observations

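A few P450 genes fell outside the symbol pattern. Cyp51, the demethylase of cholesterol synthesis, read 9.69, 9.59, 9.44 and 9.59 at its brightest probe set in VhlF/F, VhlΔIE, VhlF/F/Apcmin/+ and VhlΔIE/Apcmin/+. Cyp4a12a, known as a male-predominant enzyme of liver and kidney, read 3.85, 3.63, 3.59 and 3.60, at background. A probe set shared by Cyp4f37 and Cyp4f16 read 9.09, 8.70, 9.10 and 8.66. Those shared by Cyp2a5 and Cyp2a4 and by Cyp4a31 and Cyp4a10 read 4.51, 3.79, 3.79 and 3.72 and 4.30, 3.48, 3.81 and 3.78, both below 6 and highest in VhlF/F. Tbxas1 and Ptgis, the P450 enzymes that make thromboxane and prostacyclin, read 5.74, 5.98, 5.96 and 6.09 and 7.50, 7.25, 7.60 and 7.41.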
